A study of Mus musculus with 50 samples.

Results

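The genes described here are Pparg, which encodes the nuclear receptor PPAR-gamma, and 9 genes of lipid droplets and fatty acid handling: Cidea, Cidec, Plin2, Plin4, Plin5, G0s2, Mogat1, Cd36 and Pnpla2. They were taken by gene symbol, 10 of the 45792 rows of a table of raw RNA-seq read counts per gene, and each symbol matched 1 row. The libraries came from liver and liver tumours of C3H/He mice, described as male, with a labelled harvest time of 48 weeks, for which the sources differ on whether it counts age or time on diet. The ALIOS diet, an American lifestyle diet high in trans fat and given with fructose in the drinking water, was compared with a control diet. Non-tumour liver gave 12 samples on the control diet (N1 to N12) and 11 on the ALIOS diet (N13 to N23). Tumours of mice without a carcinogen, called spontaneous here, were 12 on the ALIOS diet (T2 to T6 and T8 to T14) and 1 on the control diet (T7). The carcinogen DEN (diethylnitrosamine) was given to the mice of the other tumours, 8 on the ALIOS diet (T15, T16 and T22 to T27) and 5 on the control diet (T17 to T21). The labels give no DEN liver without tumour, so DEN cannot be told apart from tumour in a comparison of DEN tumours with liver. They name no mouse, so a tumour and a liver may share an animal, and p-values measure the spread between these samples.

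PPAR-gamma binds fatty acids and their derivatives, pairs with a retinoid X receptor (RXR) and sits on a direct repeat of the letters AGGTCA, with a single base between the repeats. It drives the formation of adipocytes, is low in normal liver and is known to be higher in fatty liver of mice. Cidea and Cidec (also called Fsp27) are proteins of the CIDE family that let small lipid droplets pass their fat to larger ones, and perilipins (Plin2, Plin4 and Plin5) coat droplets. Cd36 takes up fatty acids and Mogat1 makes diacylglycerol from monoacylglycerol. Pnpla2, also called ATGL, is the lipase that starts the breakdown of stored triglyceride, and G0s2 is its protein inhibitor.

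Between 23798251 and 45751398 reads were counted per library over the 49 libraries used. The library labelled T1, a spontaneous tumour on the ALIOS diet, was left out of all comparisons below because it held kidney transcripts (Kap at 23036 CPM, that is, counts scaled to library size) and little albumin (Alb at 24.7 CPM). Adipocytes could bring PPAR-gamma and droplet genes into a tissue sample, so their defining markers were read first. Over all 49 libraries together, Lep had 0 counts, Plin1 2, Retn 5, Ucp1 8, Cfd 13, Adipoq 26 and Adig 71. The remaining genes of that list, Lipe and Car3, had counts in all 49 libraries. Hepatocyte markers, summed over 8 genes, were abundant in all groups, from 77418 to 249407 CPM per library. In bulk tissue, fewer cells of a type and less RNA per cell cannot be told apart.

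Windows around the transcription starts are shown for 4 genes that rose with diet or in tumours. Each window shown holds a match to the PPAR element with at most 3 mismatches. The windows shown do not stand for all genes that rose. They run from 250 bases before to 50 bases after a RefSeq start on GRCm38.p6, 5′ to 3′ on the gene's own strand. Capitals mark the best match, on either strand, to 13 letters made of AGGTCA, any base and AGGTCA again, of which 12 count. Cidec lies on the minus strand at chr6:113435711-113436010 (3 mismatches, first base of the match at -214), Mogat1 on the plus strand at chr1:78510810-78511109 (2 mismatches, at -51), Cd36 on the minus strand at chr5:17835847-17836146 (2 mismatches, at -63) and Plin2 on the minus strand at chr4:86670010-86670309 (2 mismatches, at -225). The match of Mogat1 reads on the gene's own strand and the other 3 read on the opposite strand.
Cidec: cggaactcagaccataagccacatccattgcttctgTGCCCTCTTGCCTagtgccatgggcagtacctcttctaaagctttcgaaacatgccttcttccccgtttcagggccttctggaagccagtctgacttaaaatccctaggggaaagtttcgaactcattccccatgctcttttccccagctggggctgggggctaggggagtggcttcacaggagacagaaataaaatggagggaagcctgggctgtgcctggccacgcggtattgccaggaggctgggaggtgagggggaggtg
Mogat1: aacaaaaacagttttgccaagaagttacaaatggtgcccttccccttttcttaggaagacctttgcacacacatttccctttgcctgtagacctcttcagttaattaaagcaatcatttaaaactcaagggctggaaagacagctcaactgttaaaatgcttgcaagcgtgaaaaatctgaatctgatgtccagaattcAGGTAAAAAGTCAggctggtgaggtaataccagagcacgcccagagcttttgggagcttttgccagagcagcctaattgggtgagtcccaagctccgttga
Cd36: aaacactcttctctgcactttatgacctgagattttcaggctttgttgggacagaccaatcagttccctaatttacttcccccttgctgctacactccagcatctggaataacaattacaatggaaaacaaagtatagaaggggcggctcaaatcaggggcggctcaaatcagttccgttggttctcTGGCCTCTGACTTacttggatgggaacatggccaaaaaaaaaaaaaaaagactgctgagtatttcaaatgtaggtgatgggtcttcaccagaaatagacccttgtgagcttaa
Plin2: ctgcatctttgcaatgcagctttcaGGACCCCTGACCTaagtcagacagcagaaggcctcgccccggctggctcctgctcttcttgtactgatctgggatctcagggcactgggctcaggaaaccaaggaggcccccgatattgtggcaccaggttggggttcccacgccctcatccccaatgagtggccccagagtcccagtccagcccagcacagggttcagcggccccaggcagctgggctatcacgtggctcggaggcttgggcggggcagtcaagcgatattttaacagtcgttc
RefSeq windows were at hand for 9 members, 13 windows in all. A match with at most 2 mismatches stood in 3 of these 13 windows, and in 3.86% of the 32851 mouse windows of the same length. At most 3 mismatches were found in 7 of the 13 and in 24.65% of all windows, so a match like that of Cidec is common. Another Cidec window and all windows of Pparg, which also rose, had 4 mismatches and are not shown. At most 4 mismatches were found in 79.82% of all windows. The single unit AGGTCA stood, on either strand, in 6 of the 13 windows and in 16.26% of all windows. A match of letters does not show that the factor binds there.

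In non-tumour liver, the question was what the ALIOS diet changed. Pparg rose 16.5-fold, Mogat1 11.01-fold, Cidec 8.97-fold and Cd36 2.46-fold, while Plin2, Plin4, Plin5, G0s2 and Pnpla2 did not pass the test. These 4 of 9 members tested were all higher, where 11.2% of the 13723 genes tested were called in either direction, 6.73% higher and 4.51% lower. A call here means a Benjamini-Hochberg adjusted p under 0.05 in edgeR's quasi-likelihood test. The median log2 fold change of the 9 members was 0.80, and that of all genes was -0.02. Levels below are CPM on library sizes adjusted by the TMM method of edgeR.

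Pparg (ENSMUSG00000000440.10) lies on chromosome 6 from 115360951 to 115490399 on the plus strand and was close to the limit of measurement in the control livers, where 3 to 20 reads were counted per library. Its level there was 0.0934 CPM at the lowest, 0.275 at the median and 0.697 at the highest. In the ALIOS livers it ran from 0.501 through a median of 2.21 to 19.6 CPM. All 11 ALIOS livers lay above the control median and 9 of them above every control liver, and the highest were N17 with 19.6, N19 with 11.5, N20 with 10.0, N22 with 8.39 and N15 with 5.55 CPM. The log2 fold change was 4.04 ± 0.60 (SE; adjusted p = 0.000557). Pparg was therefore not raised evenly. The lowest ALIOS livers, N16 with 0.501 and N23 with 0.542 CPM, sat inside the control range.

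Mogat1 (ENSMUSG00000012187.11) had 0.0657, 0.558 and 2.30 CPM in the control livers (lowest, median and highest) and 1.08, 5.22 and 23.2 CPM in the ALIOS livers. All 11 ALIOS livers were above the control median, and 7 of 11 were above every control liver. The log2 fold change was 3.46 ± 0.56 (SE; adjusted p = 0.00108). Mogat1 shares 200 exon bases with BC035947 on the opposite strand. Whether the counting used strand is not known, and where it did not, reads of this pair cannot be told apart. BC035947 had a median of 20 counts and at most 295 in the 49 libraries used.

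Cd36 (ENSMUSG00000002944.13) was abundant throughout, from 15.8 to 168 CPM (median 88.6) in control livers and from 143 to 312 CPM (median 212) in ALIOS livers. Of the ALIOS livers, 10 of 11 lay above every control liver, and N21, the lowest, lay within the control range. The log2 fold change was 1.297 ± 0.325 (SE; adjusted p = 0.0142). The control livers themselves differed widely in this gene: N7 had 15.8, N5 21.6 and N12 21.8 CPM.

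Cidec (ENSMUSG00000030278.9) rose from a median of 0.556 CPM in control livers (0.339 to 1.43) to 5.12 CPM in ALIOS livers (0.622 to 24.9). All 11 ALIOS livers were above the control median and 8 were above every control liver. N17 was again the highest, followed by N15 with 15.6 CPM. The log2 fold change was 3.16 ± 0.50 (SE; adjusted p = 0.000876).

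Cidea (ENSMUSG00000024526.8), the other CIDE gene, had no read in 7 of the 12 control livers and 14 reads over all 12, with at most 6 in a library. It was detected in all 11 ALIOS livers, from 0.0361 through a median of 0.193 to 1.37 CPM, at most 45 reads. The filter on low counts removed Cidea from this comparison. Without the filter its log2 fold change was 3.25 with an adjusted p of 0.00503. The highest Cidea levels were in N15, N20 and N17, which were also among the 5 livers with the most Pparg. N19 and N22, also among those 5, had 0.320 and 0.187 CPM. Over the 11 ALIOS livers the relation of Cidea with Pparg did not pass in permutation tests. Pearson's r was 0.74 (adjusted p = 0.0799) and Spearman's rho 0.66 (adjusted p = 0.117).

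**Figure D1:**
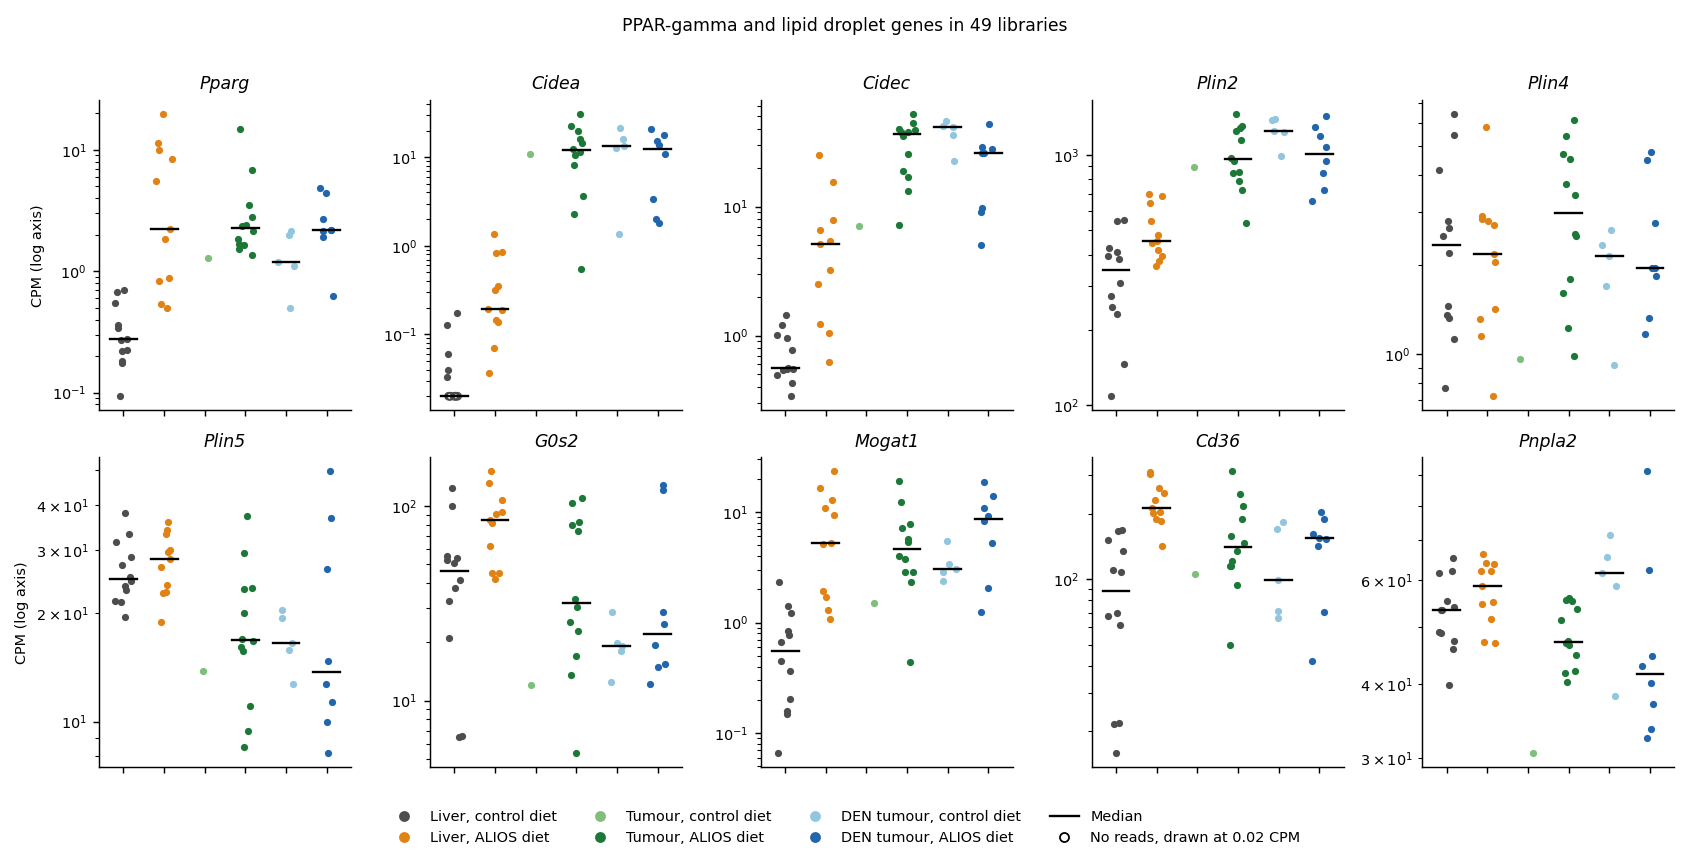
CPM of the 10 genes (log axis, a different range in each panel), with 1 point per library and a bar at the median of each group; open points at 0.02 CPM are libraries with no read of Cidea. Cidea, Cidec and Plin2 are higher in the tumour groups than in both liver groups, and Pparg, Mogat1 and Cd36 have their lowest medians in control diet livers.

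Among the perilipins, Plin2 (ENSMUSG00000028494.10) is the coat protein of most hepatocyte droplets. It had a median of 347 CPM in control livers (109 to 550) and 454 CPM in ALIOS livers (359 to 696), and the groups overlapped. The log2 fold change of 0.56 ± 0.22 (SE) had an adjusted p of 0.0867 and did not pass. Plin5 (ENSMUSG00000011305.9), which ties droplets to mitochondria, was at 24.9 and 28.4 CPM at the medians, with a log2 fold change of 0.07 (95% interval -0.17 to 0.30). Plin4 (ENSMUSG00000002831.11) was at 2.34 and 2.18 CPM, with an interval of -0.90 to 0.51. Neither passed the test.

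G0s2 (ENSMUSG00000009633.3), the lipase inhibitor, ran from 6.50 to 124 CPM in control livers (median 46.1) and from 42.3 to 150 CPM in ALIOS livers (median 84.9). Its log2 fold change of 0.80 ± 0.37 (SE) had an adjusted p of 0.152. The control livers N5 and N7 had 6.55 and 6.50 CPM, below all ALIOS livers. For Pnpla2 (ENSMUSG00000025509.13), the lipase itself, medians were 53.4 and 58.6 CPM and the log2 fold change was 0.11 (95% interval -0.05 to 0.27; adjusted p = 0.368). Without N5, N6 and N7, the 3 control livers with the least Plin2 and G0s2, Pparg, Mogat1, Cidec and Cd36 were still called, and Cd36 had a log2 fold change of 1.02 (adjusted p = 0.0179).

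Within the 11 ALIOS livers, Pparg rose and fell together with Mogat1. Over 9 genes and 4 groups of 8 or more libraries, 36 relations of log2 CPM with Pparg were computed, and 3 passed after Benjamini-Hochberg adjustment of Pearson's p (permutation tests, 2-sided). All 3 were in the ALIOS livers. The share of all genes with such a relation to Pparg was not computed, so these relations are not shown to be particular to the members. Mogat1 had r = 0.98 and rho = 0.98 (n = 11; permutation p = 2e-05 and adjusted p = 0.00072 for both, 2e-05 being the smallest p that such a test can give), and r = 0.97 without the 2 livers farthest from the median Pparg. Cidec had r = 0.86 (adjusted p = 0.0137) and rho = 0.85 (adjusted p = 0.0161), and r = 0.84 without 2 livers (permutation test). Plin2 had r = 0.86 (adjusted p = 0.0187) and rho = 0.87 (adjusted p = 0.0122), and r = 0.76 without 2 livers (permutation test). Cd36, with r = 0.75, missed by Pearson's r (adjusted p = 0.0632) and passed by rho of 0.83 (adjusted p = 0.0216, permutation tests). In the 12 control livers, where Pparg rests on a few reads, r ranged from -0.42 for Plin2 to 0.45 for Pnpla2, and none passed.

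**Figure D2:**
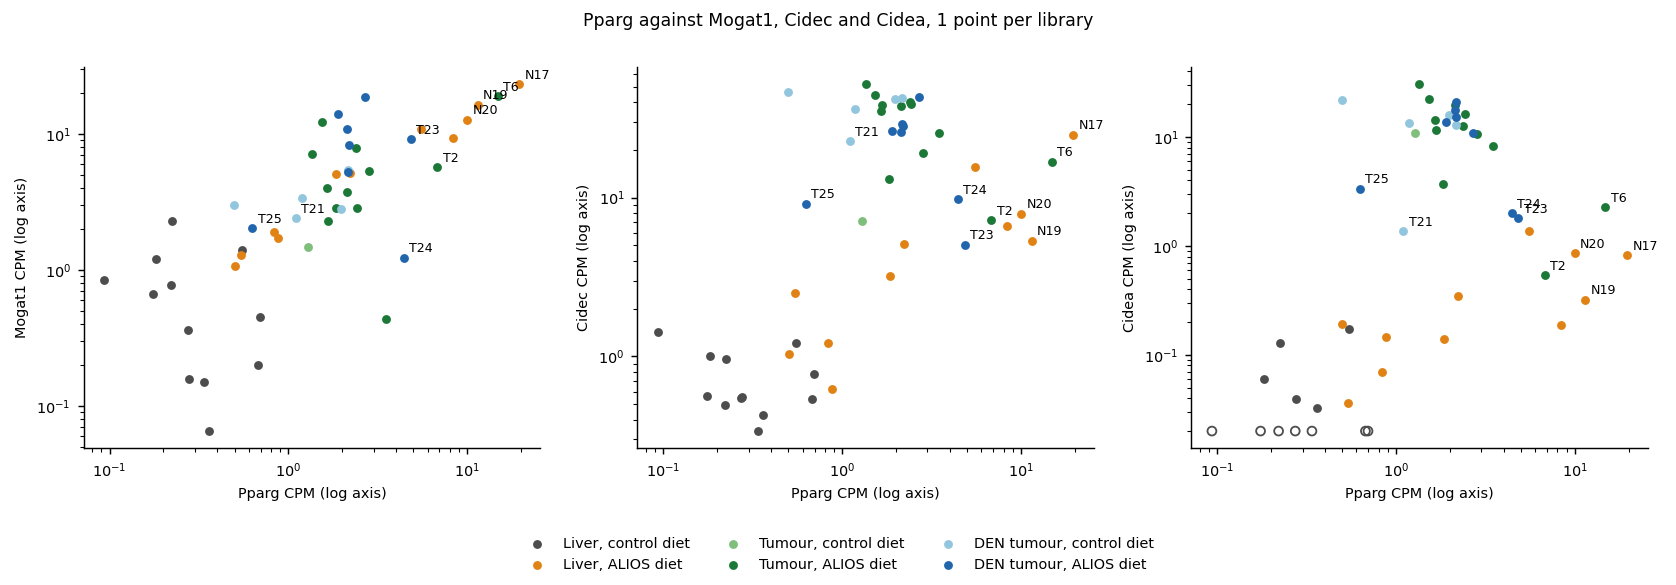
Mogat1, Cidec and Cidea against Pparg (CPM, log axes), with 1 point per library, coloured by group; open points at 0.02 CPM had no read of Cidea. In ALIOS livers (orange) Mogat1 follows Pparg closely, while the tumours with the most Cidea have Pparg near the middle of its range.

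Of 71 other genes of the pathway, from 5 lists, 69 were tested. On the ALIOS diet 7 of them were higher and 1 lower, close to the 11.2% called over all genes, with a median log2 fold change of 0.13 against -0.02 for all genes. Vldlr, a receptor that takes up triglyceride-rich lipoproteins, rose by a log2 fold change of 2.24 ± 0.38 (SE; adjusted p = 0.00141). Fitm1, which takes part in the making of droplets, rose by 1.38 ± 0.31 (adjusted p = 0.00791), and Hilpda, a droplet protein that inhibits Pnpla2, by 0.55 ± 0.13 (adjusted p = 0.0125). Fabp4, a fatty acid binding protein of adipocytes and macrophages, rose by 0.81 ± 0.18 (adjusted p = 0.00772). Cebpd, a transcription factor of early adipocyte formation, rose by 0.78 ± 0.21 (adjusted p = 0.0196). By list, 4 of 11 other droplet proteins were higher, 0 of 10 lipolysis genes passed, and 2 genes were higher and 1 lower among 21 of fatty acid uptake and PPAR targets. Of 15 partners of PPAR-gamma, among them the RXR genes, 1 was higher. Triglyceride synthesis genes had no call.

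Macrophages also express Pparg, and their markers moved with diet in the same livers. Of 8 macrophage markers, 6 were higher on the ALIOS diet, where 6.73% of all genes tested were called higher. The summed level of the 8 was 169 to 446 CPM (median 259) in control livers. In ALIOS livers it was 253 to 910 CPM (median 422). In the 5 livers with the most Pparg the sums were 667 (N17), 910 (N19), 385 (N20), 463 (N22) and 322 CPM (N15). The other ALIOS livers had 253 to 607 CPM. The part of macrophages in the rise of Pparg was not tested. Endothelial markers had no call in 8, stellate cell markers had 1 higher in 7, and hepatocyte markers had none in 8.

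In spontaneous tumours on the ALIOS diet, set against the ALIOS livers, the droplet-fusing pair and Plin2 were higher. Cidea was 29.6-fold higher, Cidec 4.46-fold and Plin2 1.97-fold, while Plin5, Cd36 and Pnpla2 were lower. Pparg, Mogat1, Plin4 and G0s2 did not pass. These 3 higher and 3 lower members stand against 52.8% of 14183 genes called in either direction (26.9% higher and 25.9% lower), so the share of members called is near that of all genes. The median log2 fold change was -0.36 for the 10 members and 0.01 for all genes.

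Cidea, Cidec and Plin2 all reached levels in tumours that most or all ALIOS livers did not. Cidea ran from 0.542 through a median of 12.05 to 30.5 CPM in these 12 tumours, and 11 of 12 lay above every ALIOS liver. The exception was T2, with 0.542 CPM. The log2 fold change was 4.89 ± 0.59 (SE; adjusted p = 7.97e-07). Cidea had failed the count filter between the liver groups. It passed here through the tumours, in which it is high, so its call depends on that selection. Cidec ran from 7.20 through 36.6 to 51.8 CPM, with 8 of 12 tumours above every ALIOS liver, and its log2 fold change was 2.16 ± 0.49 (SE; adjusted p = 0.000738). Plin2 ran from 537 through 961 to 1454 CPM, with 11 of 12 above every ALIOS liver and a log2 fold change of 0.98 ± 0.16 (SE; adjusted p = 2.58e-05).

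Pparg had nearly the same median in both groups, 2.26 CPM in tumours (1.35 to 14.8) and 2.21 CPM in livers. Its log2 fold change was -0.69 (95% interval -1.87 to 0.49; adjusted p = 0.320). No rise of the receptor gene was therefore detected where Cidea, Cidec and Plin2 rose. Mogat1, with which Pparg moved in the ALIOS livers, had 4.67 CPM at the median in tumours (0.441 to 19.05) and a log2 fold change of -0.44 (adjusted p = 0.492).

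On the side of uptake and breakdown, Plin5 had 16.9 CPM at the median of the tumours (8.52 to 37.2), a log2 fold change of -0.59 ± 0.19 (SE; adjusted p = 0.0130). Pnpla2 had 47.1 CPM (40.3 to 55.8) and fell by 0.28 on the log2 scale (SE 0.08; adjusted p = 0.00321). Cd36 had 141 CPM (50.04 to 313) and a log2 fold change of -0.56 ± 0.21 (SE; adjusted p = 0.0308). The Cd36 call was lost when any 1 of N16, N17, N18, N19, N22, T9, T10, T12 or T13 was left out (adjusted p from 0.0507 to 0.0789). G0s2 ran from 5.35 through 31.7 to 110 CPM, and its log2 fold change of -0.81 ± 0.38 (SE) had an adjusted p of 0.0785. Without T2 or without T3 it passed, with an adjusted p of 0.0360 to 0.0387. Plin4 had 2.99 CPM at the median (0.988 to 6.16) and an interval of -0.25 to 1.07, and did not pass.

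**Figure D3:**
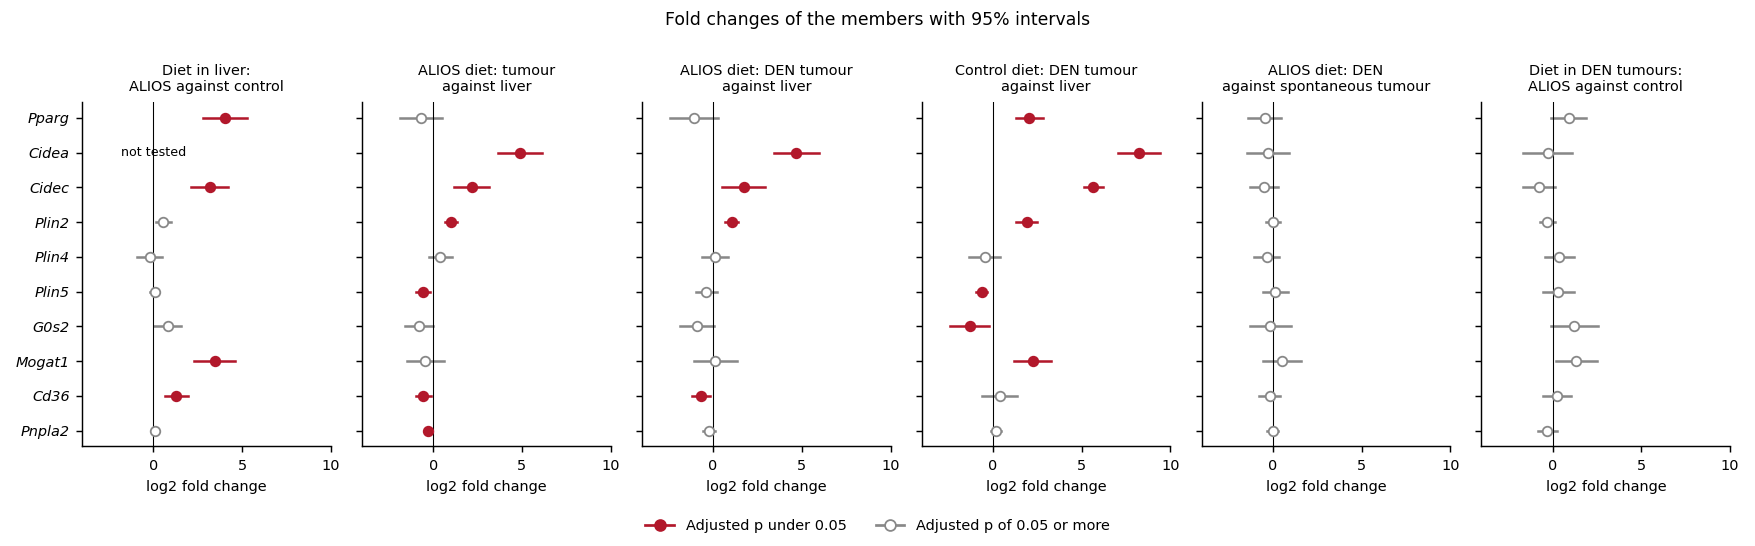
Log2 fold changes of the 10 genes (points) with 95% intervals (lines) in 6 comparisons; filled red points have an adjusted p under 0.05 in edgeR's quasi-likelihood test. Cidea, Cidec and Plin2 lie to the right of 0 in all 3 comparisons of tumours with liver, and no member is filled in the last 2 panels.

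The list of other pathway genes moved in both directions in these tumours, with 16 higher, 33 lower and 21 not passing of 70 tested (median log2 fold change -0.30 against 0.01 for all genes). Of 10 lipolysis genes, 1 was higher and 8 were lower. Over all genes, 26.9% were called higher and 25.9% lower. The genes with the smallest p were all lower. Slc27a5, a fatty acid and bile acid transport protein, had a log2 fold change of -1.61 ± 0.18 (SE), Gpat4, of glycerolipid synthesis, -1.12 ± 0.15, and Aqp9, a glycerol channel, -1.43 ± 0.21. Abhd6, a lipase of monoacylglycerol, and Aadac, a lipase of the endoplasmic reticulum, had -0.72 ± 0.10 and -0.68 ± 0.10.

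Not all tumours were alike in these genes, and the differences ran with markers of other cell types. In 6 tumours on the ALIOS diet (T2, T3, T6, T23, T24 and T25) the summed hepatocyte markers and the summed macrophage markers both lay within the range of the ALIOS livers. The first 3 are spontaneous and the last 3 are DEN tumours. The likeness holds for these sums only. T24 had a stellate cell sum of 884 CPM (264 to 646 in ALIOS livers) and an endothelial sum of 104 CPM (161 to 248). In the sum of the adipocyte list, T23 alone of the 6 lay within the ALIOS liver range (2388 to 5854 CPM). The others lay below it, T25 only just, with 2356 CPM. That sum is no measure of adipocytes, because over the 49 libraries nearly all of its counts are of Car3 (3952740, against 22263 of Lipe). Cidea was 0.542, 10.6 and 2.26 CPM in T2, T3 and T6, and 3.67 to 30.5 CPM (median 14.4) in the other 9 spontaneous tumours. Pparg was 6.81, 2.82 and 14.8 CPM in the same 3, and 1.35 to 3.50 CPM (median 1.84) in the other 9. T6 and T2 held the highest Pparg and the lowest Cidea of the group. G0s2 was 104, 110 and 79.6 CPM in the same 3 and at most 82.4 CPM (median 25.3) in the other 9. Macrophage markers were lower in spontaneous tumours than in ALIOS livers for 5 of 8 genes, where 25.9% of all genes were called lower. The macrophage sums in these tumours were 49.3 to 485 CPM (median 164). The part of cell composition in these levels was not tested.

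Without T2, T3 and T6, chosen by their markers after the data were seen, 8 members were called in place of 6 for spontaneous tumours against livers. Over all genes, 8781 were called in place of 7487, so calls rose in general. Pparg then had a log2 fold change of -1.45 (adjusted p = 0.0352) and G0s2 of -1.32 (adjusted p = 0.00519), and Cidea, Cidec and Plin2 were higher by 5.21, 2.43 and 1.18. Across all 12 spontaneous tumours Pparg ran against Cidea (r = -0.76, adjusted p = 0.128; rho = -0.76, adjusted p = 0.0380; permutation tests), which passed by rho alone. Without the 2 tumours farthest from the median Pparg, r was -0.40, so the relation rested on them.

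**Figure D4:**
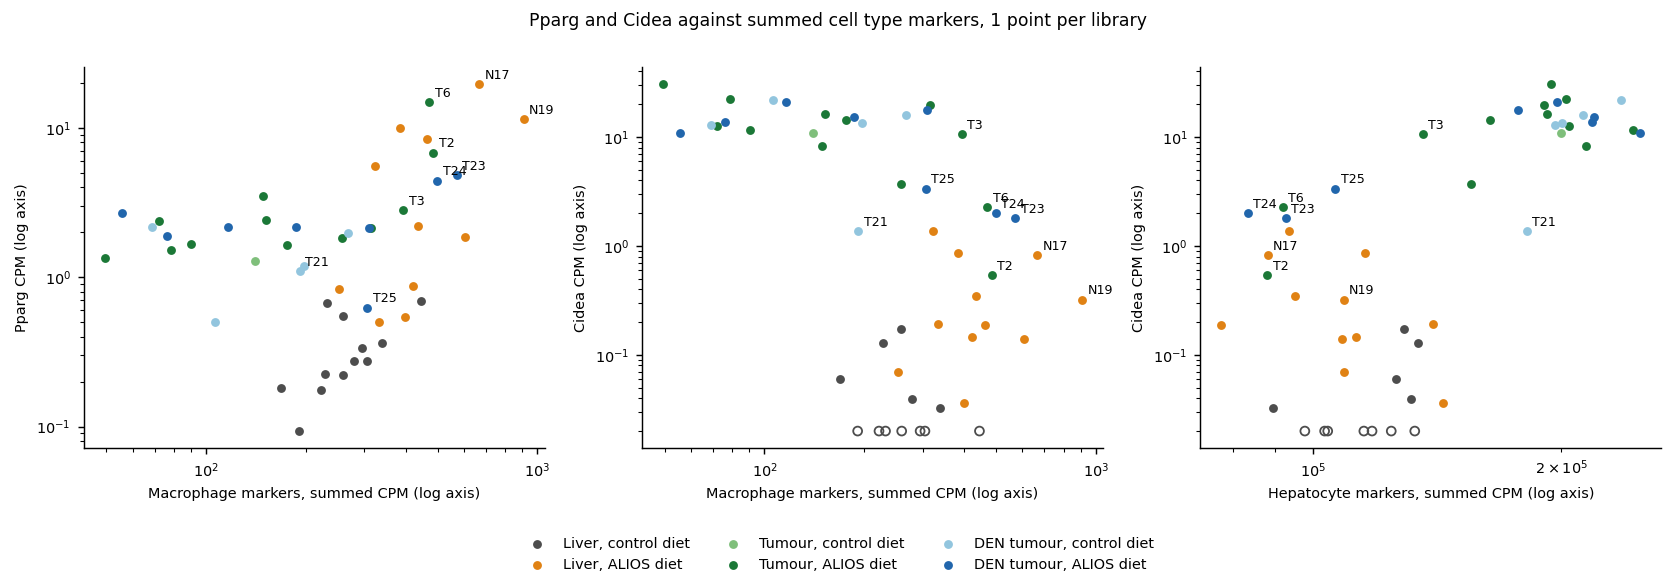
Pparg and Cidea (CPM) against the summed CPM of 8 macrophage or 8 hepatocyte markers (log axes), with 1 point per library, coloured by group; open points at 0.02 CPM had no read of Cidea. T2, T6, T23, T24 and T25 lie among the ALIOS livers in both marker sums and below most other tumours in Cidea, and T21 is low in Cidea with a hepatocyte sum of 181738 CPM.

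DEN tumours on the ALIOS diet were set against the same 11 ALIOS livers, so this comparison and that of spontaneous tumours share their controls. Cidea was 25.8-fold higher, Cidec 3.31-fold and Plin2 2.07-fold, and Cd36 was lower. These 4 calls among 10 members stand against 47.5% of 14434 genes called (27.7% higher and 19.8% lower). The median log2 fold change was -0.06 for the members and 0.08 for all genes.

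Cidea ran from 1.80 through 12.3 to 20.8 CPM in the 8 DEN tumours and did not overlap with the ALIOS livers (log2 fold change 4.69 ± 0.60 SE, adjusted p = 4.98e-06). As with the spontaneous tumours, Cidea passed the count filter through the tumours. Cidec ran from 5.04 through 25.97 to 43.4 CPM, with 5 of 8 above every liver (1.73 ± 0.57 SE, adjusted p = 0.0183). Plin2 ran from 656 through 1009 to 1433 CPM, with 7 of 8 above every liver (1.05 ± 0.17 SE, adjusted p = 6.03e-05). The lowest values of all 3 genes were in T23, T24 and T25, the tumours within the ALIOS liver range of hepatocyte and macrophage sums. Cidea was 1.80, 1.99 and 3.35 CPM there and at least 10.8 CPM in the other 5.

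Cd36 was 42.2 to 205 CPM in the DEN tumours (median 154), a log2 fold change of -0.68 ± 0.23 (SE; adjusted p = 0.0229). Pparg was 0.627 to 4.83 CPM (median 2.17), a log2 fold change of -1.09 (95% interval -2.43 to 0.25; adjusted p = 0.171). Plin5 was 49.7, 26.6 and 36.8 CPM in T23, T24 and T25 and 8.16 to 14.8 CPM in the other 5 tumours. G0s2 was 129, 14.9 and 120 CPM in the same 3, and 12.2 to 28.6 CPM in the other 5. Over all 8 tumours neither Plin5 (log2 fold change -0.38, adjusted p = 0.289) nor G0s2 (-0.88, adjusted p = 0.118) passed. Without T23, Plin5 had an adjusted p of 0.0262. G0s2 had 0.0143 to 0.0180 without T23 or without T25, and Pnpla2 had 0.00389 without T24. Pnpla2 was 91.3 CPM in T24 and 32.5 to 62.4 CPM in the other 7 (-0.24, adjusted p = 0.230). Mogat1 ran from 1.24 through 8.71 to 18.8 CPM (0.12, 95% interval -1.09 to 1.32), and Plin4 from 1.17 through 1.95 to 4.79 CPM (0.12, interval -0.60 to 0.84). Neither Mogat1 nor Plin4 passed. Without T23, T24 and T25, Plin5 had a log2 fold change of -1.30 and G0s2 of -2.09, both called lower, and 7 members were called in all. Over all genes, that fit called 9477, against 6851 with all 8 tumours.

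Among the other pathway genes, 14 were higher and 27 lower of 70 tested in these DEN tumours. Over all genes, 27.7% were called higher and 19.8% lower. Hilpda rose by a log2 fold change of 1.999 ± 0.222 (SE). Dgat2, which makes triglyceride in its last step, had -1.16 ± 0.14, Gpat4 -1.07 ± 0.14, Slc27a5 -1.42 ± 0.19 and Lipe, the hormone-sensitive lipase, -0.66 ± 0.08.

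DEN tumours on the control diet were set against the control livers. Of 10 members, 5 were higher (Cidea, Cidec, Plin2, Mogat1 and Pparg) and 2 were lower (Plin5 and G0s2), where 51.7% of 14731 genes were called (27.3% higher and 24.4% lower). The median log2 fold change was 1.15 for the members and 0.03 for all genes. The 12 control livers serve as controls here and in the comparison of diets.

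Cidea was 16.1, 12.9, 13.51, 21.7 and 1.37 CPM in T17, T18, T19, T20 and T21, and at most 0.173 CPM in the control livers. All 5 tumours lay above all 12 livers, and T21 stood far below the other 4. The fitted log2 fold change was 8.23 ± 0.57 (SE; adjusted p = 7.30e-10), with only 14 reads in all behind the liver side. Cidea passed the count filter here only through the tumours, in which it is high. Cidec was 41.7, 42.1, 36.1, 46.4 and 22.7 CPM in the same order. Its groups did not overlap, and the log2 fold change was 5.66 ± 0.24 (SE; adjusted p = 9.31e-13), or 50.7-fold. Plin2 was 1386, 1389, 1232, 1251 and 993 CPM, again above every control liver, with a log2 fold change of 1.91 ± 0.28 (SE; adjusted p = 1.18e-05).

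Pparg was 1.98, 2.17, 1.19, 0.499 and 1.10 CPM in T17 to T21, and 4 of 5 lay above every control liver. It rose 4.13-fold (log2 fold change 2.05 ± 0.37 SE, adjusted p = 0.000119). Of the 8 macrophage markers, 2 were higher in the same comparison, Gpnmb (log2 fold change 4.47) and Trem2 (2.12), and 2 lower, Clec4f (-1.59) and Cd5l (-1.06), with sums of 68.9 to 268 CPM in the tumours and 169 to 446 CPM in the livers. Of 7 stellate cell markers 3 were higher, Col1a1 (4.29), Col3a1 (2.56) and Reln (1.64), and 3 lower, Dcn (-1.14), Rgs5 (-1.05) and Lrat (-0.97). Over all genes, 27.3% were called higher and 24.4% lower. The part of these cells in the Pparg rise was not tested. T20, with the least Pparg of the 5, held the most Cidea and the most Cidec. T21, with the next least Pparg, held the least of both, and no relation was tested in this group. Mogat1 was 2.84, 5.43, 3.39, 3.02 and 2.40 CPM, above every control liver, and rose 4.72-fold (2.24 ± 0.50 SE, adjusted p = 0.000995). Cd36, which rose with diet in liver, was at 66.2 to 184 CPM and did not pass (log2 fold change 0.39, adjusted p = 0.519).

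Plin5 was 12.7 to 20.4 CPM in these 5 tumours, with 4 of 5 below every control liver and a log2 fold change of -0.63 ± 0.15 (SE; adjusted p = 0.00165). G0s2 was 12.4 to 28.4 CPM, with all 5 below the control median (-1.303 ± 0.530 SE, adjusted p = 0.0465). The G0s2 call was lost when any 1 of 12 libraries was left out, N1, N2, N3, N4, N8, N9, N10, N12, T17, T18, T20 or T21 (adjusted p from 0.0516 to 0.107), and Pnpla2 was called higher without T21 (adjusted p = 0.0469). Without N5, N6 and N7, G0s2 had a log2 fold change of -1.63 (adjusted p = 0.000324 in edgeR's test). These were chosen as the control livers with the least Plin2 and G0s2, so leaving them out enlarges the fall by construction. That fit therefore lends the G0s2 call no weight. Pnpla2 was 38.3 to 71.3 CPM over all 5 tumours (log2 fold change 0.17, adjusted p = 0.256) and Plin4 0.924 to 2.62 CPM (-0.46, adjusted p = 0.376).

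Of the other pathway genes, 15 were higher and 24 lower of 69 tested. Over all genes, 27.3% were called higher and 24.4% lower. Hilpda rose by a log2 fold change of 3.05 ± 0.22 (SE), and Abhd5, which activates Pnpla2, by 2.24 ± 0.18. Lpin3, a phosphatidate phosphatase, rose by 1.16 ± 0.10 and Acsl4, an acyl-CoA synthetase, by 1.58 ± 0.14. Slc27a5 had -1.72 ± 0.14.

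The single spontaneous tumour on the control diet, T7, allows no test. It had 10.8 CPM of Cidea, above all 23 non-tumour livers, and 896 CPM of Plin2, also above all of them. Its 7.10 CPM of Cidec lay below 3 of the 11 ALIOS livers and below all 12 spontaneous tumours on the ALIOS diet. Pparg stood at 1.28 CPM and Pnpla2 at 30.6 CPM, the latter below all other libraries.

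DEN tumours and spontaneous tumours on the ALIOS diet were not told apart by any member. None of the 10 passed in edgeR, and none had an unadjusted p under 0.05. Of all 14845 genes, 0.0% were called, with 1079 at an unadjusted p under 0.05. DESeq2 called 75 genes and limma voom 0, no member among them, and limma voom gave 1 member an unadjusted p under 0.05. The 95% interval of the log2 fold change was -0.38 to 0.41 for Plin2, -0.34 to 0.32 for Pnpla2, -1.27 to 0.30 for Cidec, -1.42 to 0.90 for Cidea and -1.39 to 0.49 for Pparg. The wider intervals leave room for differences of more than 2-fold.

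Diet was also compared within DEN tumours, 8 against 5. No member passed in edgeR, where 0.0134% of 14944 genes (2 genes) were called. Mogat1 alone had an unadjusted p under 0.05 (p = 0.0273 in edgeR), with a log2 fold change of 1.35 ± 0.55 (SE; adjusted p = 0.506). DESeq2 and limma voom each gave 3 members an unadjusted p under 0.05 and called none. Pparg had a log2 fold change of 0.91 (95% interval -0.06 to 1.89), Cidec -0.77 (-1.67 to 0.13), Cidea -0.28 (-1.68 to 1.11) and Plin2 -0.29 (-0.73 to 0.15).

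The effect of diet on 3 members differed between DEN tumours and non-tumour liver when the difference itself was tested, where 2.27% of 15606 genes were called (1.04% higher and 1.23% lower). All 3 were lower, meaning a diet effect below that in liver. Cidec gave -3.93 ± 0.71 on the log2 scale (SE; adjusted p = 0.00629), from a diet effect of 3.16 in liver and -0.77 in DEN tumours. Pparg gave -3.13 ± 0.82 (adjusted p = 0.0345, and 0.106 in limma voom). Cidea gave -3.55 ± 0.96 (adjusted p = 0.0376), but it had failed the count filter in liver and passed it here through the tumours in which it is high. Its call was lost without the filter (adjusted p = 0.0530), in limma voom (0.143) and in a fit of all 49 libraries (0.0615). In control livers Cidec had a median of 0.556 CPM and Cidea of 0 CPM, while DEN tumours on the same diet already had medians of 41.7 and 13.51 CPM. The Pparg call was lost without any 1 of N17, N19, T17, T18 or T25 (adjusted p from 0.0512 to 0.0763). The Cidea call was lost without any 1 of 15 libraries, N4, N5, N6, N8, N11, N12, N15, N17, N19, N20, T17, T18, T19, T20 or T25 (adjusted p from 0.0505 to 0.0856), and Pnpla2 passed without T24 (log2 value -0.62, adjusted p = 0.0325). Mogat1 (-2.12, adjusted p = 0.172) and Plin2 (-0.86, adjusted p = 0.174) did not pass. Fitm2, which takes part in the making of droplets, was the only other pathway gene that passed, with -0.78 ± 0.21 (SE; adjusted p = 0.0395).

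The groups of 2 or more libraries were put in order by their mean log2 CPM for each member, and each group was set against its neighbour by a permutation test, exact where a group had fewer than 10. Of 40 neighbouring pairs, 11 differed after adjustment over all 40. For Cidea the order was control liver, ALIOS liver, then the 3 tumour groups, and both steps up to the tumours differed (adjusted p = 0.0016 and 0.000529, permutation tests). The steps among the tumour groups did not. Cidec had the same shape, with adjusted p = 0.000533 from control to ALIOS liver and 0.0240 from ALIOS liver to DEN tumours on the ALIOS diet (permutation tests). Plin2 had it too, with 0.0325 from control to ALIOS liver and 0.000529 from ALIOS liver to spontaneous tumours (permutation tests). For Pparg and Mogat1 only the lowest step differed, from control liver to DEN tumours on the control diet (adjusted p = 0.00862 and 0.00259, exact permutation tests). None of their higher steps passed. G0s2 differed at its highest step alone, from control to ALIOS liver (adjusted p = 0.0452, permutation test), and Cd36 at its highest step, from spontaneous tumours to ALIOS liver (adjusted p = 0.0386, permutation test). Plin5 differed between spontaneous tumours and control liver (adjusted p = 0.0359, permutation test). No step of Plin4 or Pnpla2 passed. For Plin2 and G0s2 the step between the livers passed here, adjusted over 40 pairs, and missed in edgeR's test, adjusted over 13723 genes. Unadjusted p values in edgeR were 0.01515 for Plin2 and 0.04101 for G0s2. The outcome therefore depends on the adjustment as well as on the test.

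Levels of different genes were compared as median CPM per kilobase of exon, a scale on which gene length is divided out. In control livers Plin2 stood highest at 98.8, followed by G0s2 at 52.9, Cd36 at 24.7, Pnpla2 at 17.7 and Plin5 at 11.9. Plin4 (0.405), Mogat1 (0.358), Cidec (0.300), Pparg (0.0931) and Cidea (0) were far lower. In DEN tumours on the control diet Plin2 was at 356 CPM per kilobase, Cidec at 22.5 and Cidea at 12.1, so both CIDE genes stood above Plin5 at 7.92. Pparg was at 0.402 on this scale, above its 0.0931 in control livers and still far below these genes.

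The genes most like the leading members were sought by Pearson's r of log2 CPM, as a description without a test. Over the 23 non-tumour livers, which share the split by diet, 13857 genes were compared. Pparg was most like S100a11 (r = 0.93), Stk10 (0.93) and Ephb2 (0.92), and Cidec most like Eps8 (0.93), Tmem45b (0.92) and Slc22a29 (0.91). Eps8 was also the gene most like Cidea (0.89), before Cib3 (0.86) and Gal3st1 (0.85). Plin2 was most like Elovl5 (0.94), Aldh3a2 (0.92) and Bdh1 (0.92). Over the 26 tumours and 14903 genes the partners were different. Cidea was most like Spink1 (0.94), Gria3 (0.93) and Fhdc1 (0.92), and Plin2 most like Fhdc1 (0.89), Nrg1 (0.88) and Slpi (0.88). Cidec was most like Rnf24 (0.89), Sel1l3 (0.86) and Gprc5b (0.86). Pparg had its closest partners in Hcls1 (0.72), a gene of blood cells, Dopey2 (0.71) and Il7 (0.70).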

How the data were processed

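The authors prepared stranded mRNA libraries, aligned them to mm10 (STAR, 2-pass) and summed exon reads per Gencode M6 gene (HTSeq). Versions of both tools and the strand option are not given in the sources used here. The authors deposited whole-number counts that were not normalized. Symbols and positions are from the table and Gencode M21. Groups followed the labels, and 1 library (T1) was left out. In edgeR 4.0.16 (R 4.3.3), genes were filtered with filterByExpr, scaled by TMM and tested with glmQLFit and glmQLFTest over only the groups compared, without covariates, in 7 comparisons. SEs come from the F statistic. The script was tested on simulated data. Log2 CPM used a prior count of 2. Permutation tests were 2-sided, exact or with 100000 resamples (scipy 1.17.1). DESeq2 1.42.0 and limma 3.58.1 were alternatives. Named genes were the 10 members, at most 5 called pathway genes with the smallest p per comparison, and 3 genes most alike. Members and lists were chosen with earlier results of these data known. No 2 libraries of the same group were alike enough to be 1 library deposited again. Pairs across groups were not compared.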

Additional observations from a re-analysis of the deposited data

Results flagged for a closer look

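In 20 sets of values, the 10 members in each of both DEN tumour groups, the library farthest out was set against its neighbour. Of these, 2 stood apart, where chance flags about 1 in 20. Cidea in T21, a DEN tumour on the control diet, was the lowest at 1.37 CPM against 12.9 CPM in the next tumour, a gap of 0.809 of the whole range on the log2 scale. Pparg in T25, a DEN tumour on the ALIOS diet, was the lowest at 0.627 CPM against 1.90 CPM in the next, a gap of 0.534 of the range. T21 had a hepatocyte sum of 181738 CPM and a macrophage sum of 192 CPM, the first the lowest of the 5 DEN tumours on its diet and the second their median.

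The effect of diet differed between DEN tumours and non-tumour liver for Cidec (-3.93 on the log2 scale), Cidea (-3.55) and Pparg (-3.13). Cidea had failed the count filter in liver and entered this test through the tumours in which it is high. The Cidec call held with each library left out and in limma voom. The Cidea call was lost in 15 of 36 fits with 1 library left out and the Pparg call in 5, and both were lost in limma voom (adjusted p = 0.143 and 0.106). DEN tumours on the control diet already had Cidec and Cidea levels above all control livers, and 4 of 5 had such a level of Pparg.

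The library labelled T1, which held kidney transcripts and entered no comparison, had the highest level of 2 members over all 50 libraries. Mogat1 stood at 136 CPM (6260 reads), where the highest other library had 23.2 CPM, and BC035947, which shares exon bases with it on the opposite strand, had 4413 reads in T1 and at most 295 elsewhere. Cd36 stood at 499 CPM (22948 reads), where the highest other library had 313 CPM. T1 had 2 reads of Cidec and 585 reads of Plin2, below all 49 other libraries, and 1 read of Cidea.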

How the results depend on the processing

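Leaving out each library in turn gave 4 called members for diet in liver in all 23 fits, 5 to 7 for spontaneous tumours, 4 to 6 for DEN tumours on the ALIOS diet and 6 to 7 on the control diet, 0 for DEN against spontaneous tumours and for diet in DEN tumours, and 1 to 4 for the difference of diet effects. The value was 1 without N17, N19, T17, T18 or T25, and 4 without T24. For DEN tumours against ALIOS liver, limma voom with sample weights called 7 members. So did the fit without T23, T24 and T25, chosen after seeing the data. Over all genes these gave 9615 and 9477 calls, against 6851 in edgeR with all tumours. Without T23, T24 and T25 the difference of diet effects had 5 called members, and Plin5 there turned from 0.24 to -0.66 (adjusted p = 0.0451 in edgeR). Under limma voom the Pparg difference had an adjusted p of 0.106 and that of Cidea 0.143. Without the filter or in a fit of all 49 libraries, Cidea there had 0.0530 and 0.0615 (0.0882 without N5, N6 and N7), and Cd36 in spontaneous tumours had 0.0614 and 0.127 (0.390 with T1 kept). In the fit of all 49 libraries, Cd36 in DEN tumours on the ALIOS diet had 0.0776, and on the control diet Plin5 had 0.0572 and G0s2 0.0635 (0.0560 under limma voom). No other direction of a called member turned. Over all genes, diet in liver gave 1542 calls, and 2415 in DESeq2, 2957 in limma voom, 623 in the fit of all 49 libraries, 949 without N17 and 2343 without N13. The difference of diet effects gave 354, and 646 in DESeq2, 1034 in limma voom and 220 in the fit of all 49 libraries. It gave 174 (without T17) to 732 (without T24) with a library left out, and 1651 without T23, T24 and T25. Diet in DEN tumours gave 2, and 152, 118 and 296 in DESeq2, limma voom and the fit of all 49 libraries. It gave 1 without the filter, 20 without T23, T24 and T25, and 0 to 19 with a library left out. DEN against spontaneous tumours gave 0, and 75, 0 and 403 in the same order, with 0 to 15 when a library was left out. The cause of these shifts was not tested. On log2 DESeq2-normalized counts, 11 of 40 neighbouring pairs and 3 of 36 relations with Pparg passed, as on log2 CPM. In limma voom the log2 fold changes of Pparg and Cidec with diet in liver were 3.43 and 2.42, that of Cidec in spontaneous tumours 2.79, those of Cidea and Cidec in DEN tumours on the ALIOS diet 5.46 and 2.56, and the Cidec difference -3.00.

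No paired analysis was possible because the labels give no mouse, litter or batch and the library numbers only name samples. Cidea in control livers rests on 14 reads, and Pparg there on 3 to 20 reads a library, so their folds have a large counting error. In simulated counts for diet in DEN tumours, 34% of genes changed 2-fold were recovered and 80% of those changed 4-fold, against 88% and 96% for diet in liver. The simulation changed a small random set of genes, none with very few counts, and kept all others equal. Its shares need not hold for the real data, least of all for genes with few reads. Harvest time, extraction and sequencing batch could not be set against the groups. RNA was of whole tissue, and reads carry no molecular identifiers.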
